A study of Mus musculus with 1094 samples.

Results

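At E18.5 (E for embryonic day), the end of neuron production in the mouse cortex, sorted basal progenitors (BP) were compared with sorted neural stem cells (NSC). Members were the single cells labelled with either population at E18.5 that had at least 1000 genes at 1 TPM or more. There were 61 BP and 66 NSC cells, 127 of the 1094 cells in the series, and 1 BP cell fell under the gene minimum. Both populations came from dorsal cortex of wild-type C57Bl/6 embryos labelled female. NSC were taken as green cells of the Hes5::GFP transgenic line and BP as green cells of the Tbr2::GFP line, in which the promoter of Tbr2, also called Eomes, drives the reporter. Green protein can persist in a cell after its promoter falls silent. The Tbr2::GFP line also supplied the newborn neurons (NBN), and the labels do not say how BP and NBN were separated. Cells were captured on Fluidigm C1 arrays, their RNA was amplified with SMARTer chemistry and sequenced on an Illumina NextSeq instrument. Each population forms 1 library, meaning all its cells at the stage, and the labels name neither animals nor batches. The difference between the populations and the difference between the captures, embryos and reporter lines therefore cannot be told apart at E18.5.

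Radial glia are the stem cells of the cortex: they span its wall, receive Notch signals and keep Hes genes active. Their daughters can become basal progenitors, which switch on Eomes, lose the apical attachment and divide away from the ventricle, mostly to make neurons. Late in gestation stem cells also begin to produce astrocytes and oligodendrocytes, and their transcripts take on a glial character.

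Promoter windows of the reporter gene Hes5, of 2 genes with the largest differences towards NSC (Aldoc and Mfge8) and of Nhlh1, which was listed at 0 in every NSC cell, are shown so that their sequences can be read beside the levels. The windows are RefSeq's, on GRCm38.p6, from 250 bases before to 50 bases after the start site, 5′ to 3′ on the gene's strand. For Hes5 (chr4:154960673-154960972, plus strand), Aldoc (chr11:78322823-78323122, plus strand) and Mfge8 (chr7:79149011-79149310, minus strand) capitals mark GTGGGAA or its reverse complement TTCCCAC, the letters read by RBPJ, the DNA-binding partner of Notch. For Nhlh1 (chr1:172057547-172057846, minus strand) capitals mark CAGATG, an E-box read by proneural factors, whose reverse complement is CATCTG.
Hes5: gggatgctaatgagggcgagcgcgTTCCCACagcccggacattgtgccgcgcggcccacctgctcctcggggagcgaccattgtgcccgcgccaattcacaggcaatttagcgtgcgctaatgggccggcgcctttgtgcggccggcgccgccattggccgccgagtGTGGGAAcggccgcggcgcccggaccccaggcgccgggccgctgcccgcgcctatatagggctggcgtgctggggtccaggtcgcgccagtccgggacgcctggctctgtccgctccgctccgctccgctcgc
Aldoc: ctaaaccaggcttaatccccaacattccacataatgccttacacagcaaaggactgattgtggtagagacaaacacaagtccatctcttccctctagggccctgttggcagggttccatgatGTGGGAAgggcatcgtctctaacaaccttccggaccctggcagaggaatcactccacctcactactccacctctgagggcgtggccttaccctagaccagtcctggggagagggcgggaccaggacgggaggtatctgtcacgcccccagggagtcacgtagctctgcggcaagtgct
Mfge8: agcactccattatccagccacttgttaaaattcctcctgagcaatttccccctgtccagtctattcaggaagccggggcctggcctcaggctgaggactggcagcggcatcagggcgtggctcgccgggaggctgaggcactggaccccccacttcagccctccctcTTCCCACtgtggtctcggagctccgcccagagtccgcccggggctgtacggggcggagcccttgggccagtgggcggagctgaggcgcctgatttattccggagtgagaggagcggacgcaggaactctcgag
Nhlh1: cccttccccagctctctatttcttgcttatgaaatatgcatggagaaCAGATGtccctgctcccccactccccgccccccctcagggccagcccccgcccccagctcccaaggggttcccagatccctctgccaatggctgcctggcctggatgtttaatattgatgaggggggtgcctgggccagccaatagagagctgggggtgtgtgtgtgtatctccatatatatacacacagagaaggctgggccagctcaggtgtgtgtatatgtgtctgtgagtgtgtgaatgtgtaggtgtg
In Hes5 the matches began 226 and 83 bases before the start site, in Aldoc 128, in Mfge8 83 and in Nhlh1 203 bases before it. Across all 32851 promoter windows in the table, 6.38% held GTGGGAA on either strand and 17.2% held CAGATG. Neurod1, searched for CAGATG as well, had no match in its window, and another RefSeq window of Aldoc held GTGGGAA 16 bases after its start site. A match describes the letters only.

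The reporter genes themselves helped to choose the cells, so their levels are a description. Levels are TPM, a transcript share scaled for length, so they can be compared between genes. Hes5 (chromosome 4, 154960923 to 154962371, GRCm38), a Notch target, reached 1 TPM in 15 of 66 NSC cells (22.7%, exact binomial 95% interval 13.3 to 34.7) and in 1 of 61 BP cells (1.64%, 0.0415 to 8.80). Its median over cells was 0 TPM in both libraries, with a highest cell of 998.5 TPM in NSC and 5.11 TPM in BP. The log2 difference of means was −4.85, and the share criterion was missed with at least 2000, 2000 to 5000 or 3000 to 5000 genes per cell and at 10 TPM. Most NSC cells thus had Hes5 under 1 TPM although they were sorted by its reporter. Eomes (chromosome 9, 118478212 to 118486132) reached 1 TPM in 46 of 61 BP cells (75.4%, 62.7 to 85.5) and in 19 of 66 NSC cells (28.8%, 18.3 to 41.3). Its levels ran from 0.0105 through a median of 9.13 to 1381 TPM in BP cells, and from 0 through 0.227 to 2103 TPM in NSC cells. The mean over cells was nevertheless close, 172 TPM in BP and 134 TPM in NSC (log2 difference 0.36), because the fewer NSC cells with Eomes held more of it, 464 TPM on average against 228 TPM. Averaging log2 values per cell in place of TPM gave a difference of 2.08. All binomial intervals cover counting error only.

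The libraries differed in how much was detected per cell and in how uniform their cells were. BP cells had a median of 4936 genes at 1 TPM or more and NSC cells 3428. How deeply each cell was sequenced is unknown, since TPM do not carry it. No column was identical to another among the 247 cells of the E18.5 and P0 pairs. Each cell was placed by its mean log2(TPM + 1) over 18 radial glia genes and over 18 newborn neuron genes. In BP, 0 of 61 cells (upper limit 5.87%) had the radial glia mean above the neuron mean. In NSC, 48 of 66 cells did (72.7%, 60.4 to 83.0), and the other 18 cells did not; 11 NSC and 3 BP cells lay within 1 log2 unit of equality. At P0, a stage whose labels give a postnatal age of 1 day, the same count was 2 of 75 BP and 41 of 45 NSC cells. At E17.5 it was 19 of 76 NSC cells.

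**Figure D1:**
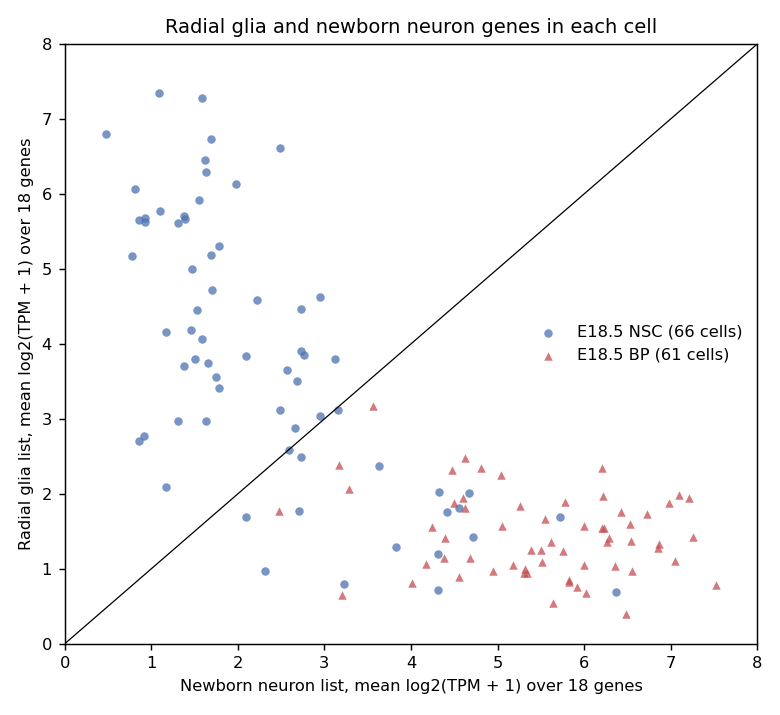
Each point is 1 cell at E18.5, placed by its mean log2(TPM + 1) over 18 newborn neuron genes (horizontal) and over 18 radial glia genes (vertical), with the line of equality. All 61 BP cells lie below the line, and 48 of 66 NSC cells lie above it.

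The 48 NSC cells with a radial glia profile and the 18 with a neuron profile differed in the genes each group held, and since the profile was cut from 2 gene lists this is a description. Olig1, an oligodendrocyte lineage transcription factor gene, was at 1 TPM or more in 18 of the 48 and 0 of the 18. Gad1, which makes the enzyme of GABA synthesis in interneurons, was at that level in 0 of the 48 and 5 of the 18. Eomes was held by 10 of the 48 and 9 of the 18 cells, and Dcx, a microtubule protein gene of migrating neurons, by 25 and 17. At least 3 markers at 10 TPM or more were required to say that a cell held a cell type's markers. By that rule interneuron markers were in 8 of 66 NSC cells (12.1%, 5.38 to 22.5) and 0 of 61 BP cells. The summed level of the 9 interneuron genes had a median of 5.41 TPM and a highest cell of 641 TPM in BP, against 7.33 and 3265 TPM in NSC. Gad1, Dlx1, Dlx2, Dlx5 and Sst were at 0 in every BP cell, and in NSC only Sst was. Oligodendrocyte lineage markers were in 14 of 66 NSC cells (21.2%, 12.1 to 33.0) and in 0 BP cells, and Cajal-Retzius markers in 1 BP cell. No cell of either library held 3 microglial, endothelial, mural, meningeal, erythroid or ependymal markers.

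With 1 library a side there is no test between the E18.5 populations. A gene counted as higher or lower in BP when log2 of the ratio of (mean TPM + 1) was at least 1 in size and the share of cells at 1 TPM or more differed by at least 20 percentage points in the same direction. Of 13359 genes with a mean of 1 TPM or more in either library, 1121 were higher in BP (8.39%) and 101 lower (0.756%). The median log2 difference over all compared genes was 0.24 and the median share of cells was 6.71 points higher in BP. That tilt moved with the number of genes per cell. Among cells with 2000 to 5000 genes, 30 BP and 64 NSC with medians of 4138.5 and 3428 genes, the counts were 776 higher and 186 lower and the median difference was −0.01. Among cells with 3000 to 5000 genes, chosen after the data were seen, they were 694 and 333. The part of detection per cell in the counts was otherwise not tested.

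**Figure D2:**
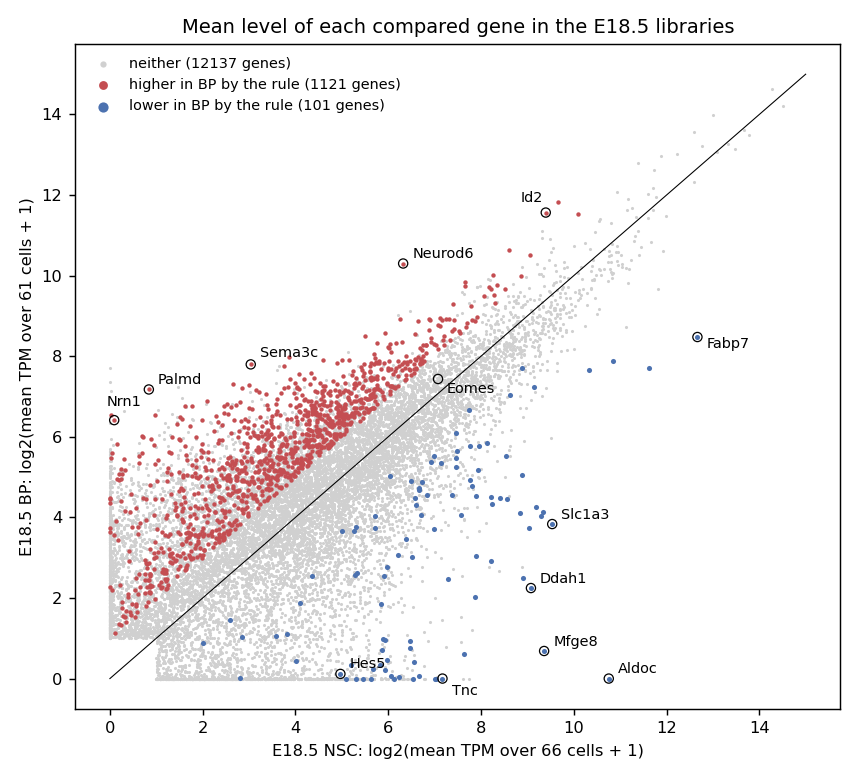
Each point is 1 of 13359 genes, with log2(mean TPM + 1) over 66 NSC cells on the horizontal axis and over 61 BP cells on the vertical axis, and the line of equality. Red points are the 1121 genes higher in BP, blue points the 101 lower, and circled genes are named; Aldoc and Tnc lie on the lower edge at 0 TPM in BP.

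Of the 12 genes with the largest differences towards NSC, Mfge8 and Slc1a3 were on the radial glia list, Aldoc and Tnc on the astroglial list and Olig1 on the oligodendrocyte lineage list, and the other 7 were on none of these. At P0 all 12 had the same sign and 11 were also counted as lower in BP. Aldoc (chromosome 11, 78322968 to 78327781), the brain aldolase of astroglia, was at 0 in every BP cell. In NSC it ran from 0 through a median of 0 to 18913 TPM and reached 1 TPM in 18 of 66 cells (27.3%, 17.0 to 39.6). The 18 cells averaged 6333 TPM, so a minority of NSC cells carried the whole difference, and 17 of them had the radial glia profile. Mfge8 (chromosome 7, 79133768 to 79149060), a secreted protein gene of radial glia, was held by 29 of 66 NSC cells (43.9%, 31.7 to 56.7) and 1 of 61 BP cells. Its highest cell was 6288 TPM in NSC and 36.5 TPM in BP, the medians were 0 in both, and the log2 difference of means was −8.68. Slc1a3, the glutamate transporter of radial glia, was more widely held: 43 of 66 NSC cells with a median of 116 TPM against 9 of 61 BP cells with a median of 0, a log2 difference of −5.70.

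Ddah1, an enzyme gene of arginine metabolism, had a median of 37.2 TPM in NSC and 0 in BP, with 37 of 66 and 3 of 61 cells and a log2 difference of −6.83. Tnc, the matrix protein tenascin C, Sall3, a zinc finger transcription factor, Olig1 and Zcchc24 were, with Aldoc, at 0 in every BP cell, and 21, 31, 18 and 18 NSC cells held them. Their mean levels in NSC were 143, 92.3, 68.6 and 48.6 TPM. No fold can be given for these 5 genes. Serpine2, a protease inhibitor gene, Gng12, a G protein subunit gene, Cspg5, a membrane proteoglycan gene, and Ncald, a neuronal calcium sensor gene, had log2 differences of −6.42, −6.14, −5.71 and −7.03. Between 1 and 2 BP cells held each of these 4 genes, and 20 to 35 NSC cells did. Ncald had the smallest difference of the 12 at P0, −0.94, and was the gene not counted there.

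**Figure D3:**
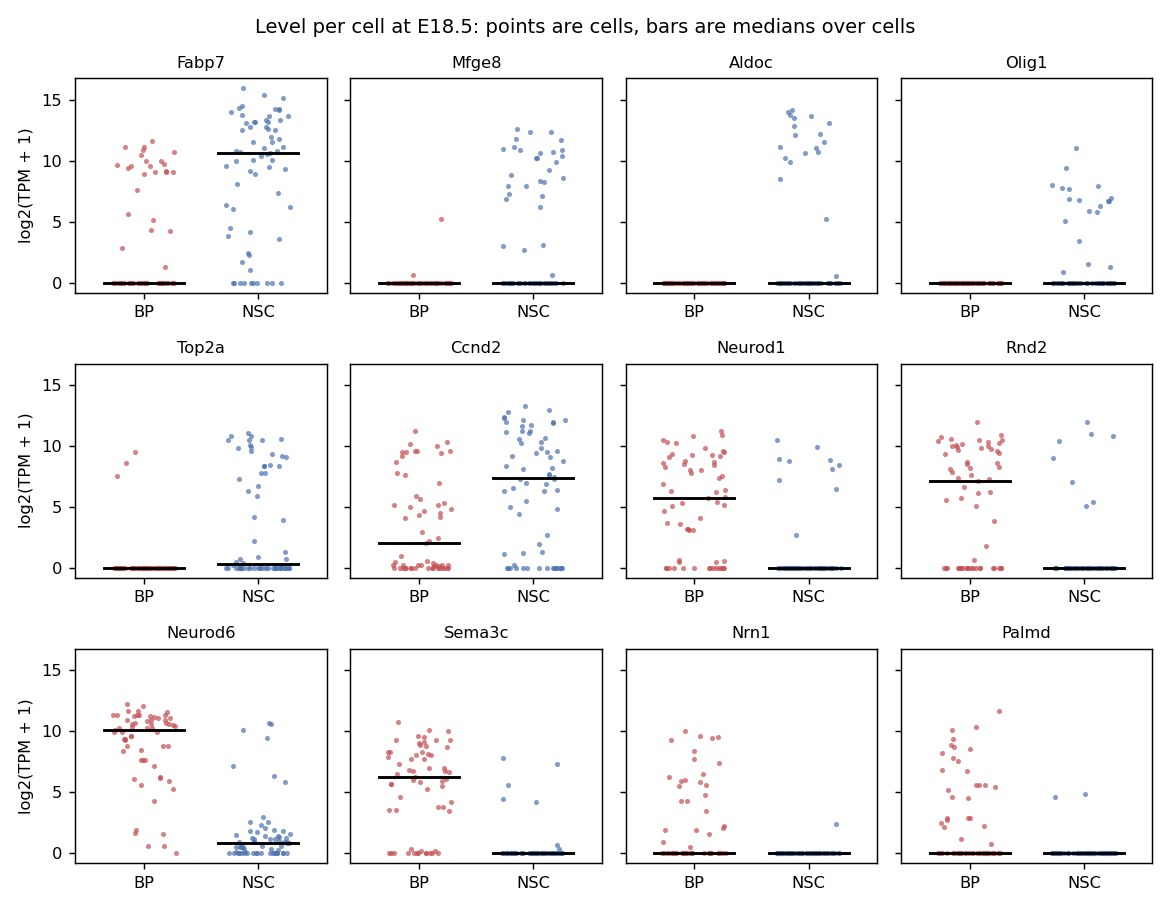
Each panel is 1 gene, with log2(TPM + 1) of each of 61 BP cells (red) and 66 NSC cells (blue) and a bar at the median over cells. Aldoc, Mfge8 and Olig1 are high in a minority of NSC cells and near 0 in BP, while Neurod6 and Sema3c are high in most BP cells.

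Towards BP the 12 largest differences lay between 4.88 and 6.34 log2 units. All 12 had the same sign at P0, and 5 were counted as higher there. Palmd (chromosome 3, 116918258 to 116968987), which encodes the cytosolic protein palmdelphin, was at 1 TPM or more in 27 of 61 BP cells (44.3%, 31.5 to 57.6) and 2 of 66 NSC cells (3.03%, 0.369 to 10.5). Levels ran from 0 through a median of 0 to 3191 TPM in BP and to 28.4 TPM in NSC, a log2 difference of 6.34. Nrn1 (chromosome 13, 36725361 to 36735131), which encodes neuritin, a surface protein that promotes neurite growth, was in 24 of 61 BP cells (39.3%, 27.1 to 52.7) and 1 of 66 NSC cells. Its highest cells were 1046 TPM in BP and 4.37 TPM in NSC, and the log2 difference was 6.32. Among cells with 3000 to 5000 genes the values were 6.76 for Palmd and 6.46 for Nrn1.

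Cib2, which encodes a calcium-binding protein, was the most widely held of the 12, in 42 of 61 BP and 8 of 66 NSC cells, with a median of 2.40 TPM in BP and 0 in NSC. Aff3, a nuclear protein gene, was in 27 BP and 3 NSC cells, with means of 79.2 and 1.72 TPM. Counted as higher at P0 as well, with log2 differences there, were Palmd (3.03), Mgat5b, a glycosyltransferase gene (1.78), Cacnb3, a calcium channel subunit gene (4.20), Celf3, a neuronal splicing factor gene (4.44), and Aff3 (3.71). For the other 7 genes the P0 log2 differences were between 0.33 and 2.71. They are Nrn1, the F-box gene Fbxw2, the phosphatidate phosphatase gene Lpin1, the adhesion adaptor gene Bcar1, the peptidase-like gene Prepl, the phosphoinositide-binding protein gene Plekha1, and Cib2. The share criterion was no longer met by Fbxw2 (5.38) and Lpin1 (4.85) among cells with 2000 to 5000 genes, by Cacnb3 (2.83) and Lpin1 (4.92) among cells with 3000 to 5000, and by Celf3, Cib2 and Prepl when 10 TPM was asked of a cell.

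Radial glia genes were lower in BP as a group, although most were not absent. Of 18 list genes compared, 10 were lower, 0 higher and 8 neither, with a median log2 difference of −3.49 against 0.24 over all genes. With cells of 3000 to 5000 genes 11 were lower and 0 higher. Fabp7, a fatty acid binding protein gene, ran from 0 through a median of 1566 to 64236 TPM in NSC and from 0 through 0 to 3107 TPM in BP. It was held by 56 of 66 NSC cells (84.8%, 73.9 to 92.5) and 25 of 61 BP cells (41.0%, 28.6 to 54.3), with a log2 difference of −4.19. Dbi, a lipid-binding protein gene, was in 53 NSC and 23 BP cells (−3.92). The intermediate filament gene Vim was in 39 and 8 cells (−5.30), and the transcription factor gene Sox9 in 58 and 38 cells (−3.04). Ednrb, an endothelin receptor gene, had a log2 difference of −6.12 but was detected in 52 NSC and 46 BP cells, so it did not meet the share criterion. Pax6, a transcription factor gene of cortical progenitors, was at 1 TPM or more in all 61 BP and all 66 NSC cells. Its median was 38.1 TPM in BP and 15.4 TPM in NSC, with means of 98.4 and 107 TPM. It also reached 1 TPM in 97.0% of NBN cells. At least 3 radial glia markers at 10 TPM were in 46 of 61 BP cells (75.4%) and 62 of 66 NSC cells (93.9%).

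Glial genes beyond the radial glia program were lower in BP as well. Of 23 astroglial genes 6 were lower (Aldoc, Apoe, Bcan, Mt1, Mt3 and Tnc) and 0 higher, with a median of −4.25. Cst3, a protease inhibitor gene, stood at a mean of 420 TPM in BP and 2220 TPM in NSC, and Mt3, a metallothionein gene, was in 7 and 26 cells (−5.20). Several astroglial genes were in few cells on either side: Gfap was held by 6 of 66 NSC cells and Gja1, a gap junction gene, by 11, and both were at 0 in all BP cells. At 10 TPM per cell, Mt1 missed the share criterion. Of 10 oligodendrocyte lineage genes, Olig1 and Olig2 were lower and 0 higher, and Olig2 missed the share criterion at 10 TPM and with 3000 to 5000 genes. Pdgfra, the receptor gene of oligodendrocyte precursors, was in 13 NSC cells with a mean of 132 TPM and in 0 BP cells at 1 TPM. Sox10 was in 8 NSC cells and at 0 in BP. At least 3 astroglial markers at 10 TPM were in 35 of 61 BP cells (57.4%) and 51 of 66 NSC cells (77.3%).

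Genes of the basal progenitor stage were partly higher in BP. Of 17 compared, 5 were higher, 0 lower and 12 neither, with a median of 1.20. Neurod1, a proneural transcription factor gene, ran from 0 through 52.2 to 2351 TPM in BP and from 0 through 0 to 1434 TPM in NSC. It was held by 43 of 61 BP cells (70.5%, 57.4 to 81.5) and 10 of 66 NSC cells (15.2%, 7.51 to 26.1), a log2 difference of 2.16. Rnd2, a gene of migrating cortical neurons, was in 39 BP and 8 NSC cells, with medians of 138 and 0 TPM and a log2 difference of 1.67. Sstr2, a somatostatin receptor gene, was in 36 and 10 cells (2.17), and Elavl2, an RNA-binding protein gene, in 52 and 24 (1.34). Nhlh1, a helix-loop-helix factor gene with an E-box in its promoter window, was in 16 of 61 BP cells (26.2%, 15.8 to 39.1), with a highest cell of 258 TPM and a mean of 19.4 TPM. It was at 0 in all 66 NSC cells, so no fold can be given, and at 0 in all NBN cells reaching the minimum. It missed the share criterion with 2000 to 5000 or 3000 to 5000 genes per cell and at 10 TPM. The antiproliferative gene Btg2 leaned the other way, with means of 84.4 TPM in BP and 306 TPM in NSC (−1.84), but the shares of cells were 21 of 61 and 27 of 66. Neurog1 was at 0 in both libraries. Notch ligand genes Dll1 and Dll3 had differences of 0.42 and 0.65 and were counted as neither; without the highest cell of each library the Dll1 value was −2.23.

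Most newborn neuron genes were higher in BP. Of 18 newborn neuron genes 12 were higher, 0 lower and 6 neither, with a median of 1.81, and 9 were higher among cells with 3000 to 5000 genes. Neurod6, a transcription factor gene of cortical excitatory neurons, ran from 0 through a median of 1107 to 4721 TPM in BP and from 0 through 0.765 to 1590 TPM in NSC. It was held by 58 of 61 BP cells (95.1%, 86.3 to 99.0) and 26 of 66 NSC cells (39.4%, 27.6 to 52.2), a log2 difference of 3.98. Tubb3, the neuronal tubulin gene, had medians of 2542 and 1.48 TPM, in 57 BP and 33 NSC cells (1.45). Dcx was in 61 and 42 cells (2.05), and Sox4, in 61 and 60 cells with means of 751 and 197 TPM, missed the share criterion. Tbr1, a deep layer and newborn neuron factor gene, was in 43 of 61 BP and 6 of 66 NSC cells (2.63). At least 3 newborn neuron markers at 10 TPM were in all 61 BP cells and in 51 of 66 NSC cells (77.3%). Of the 46 BP cells with Eomes, 43 also held Neurod6 and 30 held Tbr1, against 10 and 2 of the 19 NSC cells with Eomes. The BP cells without Eomes held them as well, Neurod6 in 15 of 15 and Tbr1 in 13 of 15.

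Tbr1, given above as higher, was placed on the newborn neuron list and not on the deep layer list. Of the 10 genes compared on the deep layer list 0 were higher and 0 lower, with a median of 1.14. The upper layer list had the same median, 1.14, with 8 of its 11 genes neither higher nor lower, and the difference between the lists was not tested. Unc5d, a netrin receptor family gene of the upper layer list, was higher, in 46 of 61 BP and 22 of 66 NSC cells (2.81). Plxna4, a semaphorin receptor gene, was also higher, in 34 of 61 BP cells and 1 of 66 NSC cells (4.18). Pou3f2, an upper layer factor gene, had means of 640 and 214 TPM but was in nearly all cells of both libraries. The deep layer genes Tle4, Sox5, Foxp1 and Foxp2 lay between −0.03 and 1.70.

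Many migration and guidance genes were higher in BP, in part the same genes as on the lists above. Of 19 migration and cytoskeleton genes 10 were higher and 0 lower (median 1.45), and of 15 axon guidance genes 7 were higher and 0 lower (median 1.98). Among the 10, Dcx, Tubb3, Stmn2 and Nrp1 were also on the newborn neuron list and Rnd2 on the basal progenitor list. Among the 7, Nrp1 was shared with those lists, and Unc5d and Plxna4 with the upper layer list, so the counts are not separate. Tuba1a and Stmn1, which encode tubulin and a tubulin-binding protein, were the most abundant, at 12030 and 9588 TPM in BP, and did not meet the criteria. Sema3c, a secreted semaphorin gene, was chosen after its values were seen: 46 of 61 BP cells (75.4%, 62.7 to 85.5) and 5 of 66 NSC cells (7.58%, 2.51 to 16.8) held it, with medians of 77.0 and 0 TPM and a log2 difference of 4.76. The semaphorin receptor subunit gene Nrp1 was in 43 and 17 cells (3.47), the Slit receptor gene Robo2 in 34 and 7 (3.18), and the ephrin receptor gene Epha4 in 48 and 25 (2.12). Of 17 synapse genes 3 were higher: the vesicle fusion gene Snap25 (2.22), and the glutamate receptor subunit genes Gria2 (1.51) and Grin2b (2.35), the last of which missed the share criterion with 2000 to 5000 or 3000 to 5000 genes per cell. Of 4 neuronal subunit genes of the BAF chromatin remodeller, Actl6b was higher, in 19 BP and 2 NSC cells (4.15). Lhx2 was the gene of 10 dorsal telencephalon genes counted as higher (2.73, in 31 and 4 cells). A count of 1 in 10 is near the 8.39% over all genes, and 0 of this list were counted as higher at P0. The abundant Nfib and Nfix, nuclear factor I genes, had differences of 1.79 and 1.75 without meeting the share criterion.

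**Figure D4:**
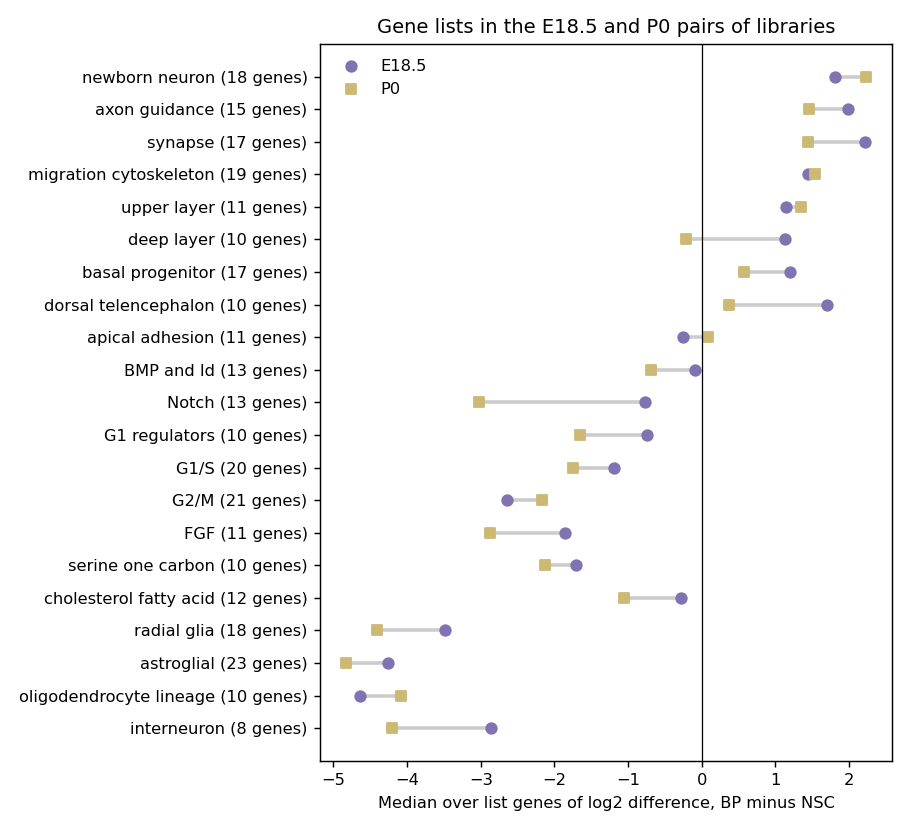
Each row is a gene list, with the median over its compared genes of the log2 difference BP minus NSC at E18.5 (circles) and at P0 (squares), and the number of genes compared at E18.5. Newborn neuron genes lie at 1.81 and 2.24, radial glia genes at −3.49 and −4.41, and the deep layer list changes sign.

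Cell division genes were lower in BP, in level more than in the number of genes that met both criteria. All 21 G2/M genes had negative differences, with a median of −2.65, and 4 were lower by both criteria: Top2a, Mki67, Cdk1 and Cenpe. Top2a, the topoisomerase of dividing cells, was in 28 of 66 NSC cells (42.4%, 30.3 to 55.2) and 3 of 61 BP cells (4.92%, 1.03 to 13.7), with highest cells of 2144 and 746 TPM (−3.71). Ccnb1, the mitotic cyclin gene, was in 15 and 3 cells, with means of 326 and 41.4 TPM (−2.94). Ube2c and Cdk1 had differences of −2.49 and −4.85. The 8 NSC cells with interneuron markers touch this count: without cells holding markers of another type, the list had 1 lower gene and a median of −2.16. At least 3 G2/M markers at 10 TPM were in 14 of 61 BP cells (23.0%, 13.2 to 35.5) and 32 of 66 NSC cells (48.5%, 36.0 to 61.1). The E18.5 NBN library was near BP, with 14 of 66 cells (21.2%), so the BP share is not particular to BP. All 14 BP cells held Eomes, 14 of 46 cells with it against 0 of 15 without it. The other BP libraries did not show that split. With and without Eomes, the counts were 14 of 64 and 5 of 15 cells at E16.5, and 19 of 41 and 12 of 34 at P0. Of the 48 NSC cells with the radial glia profile, 26 held 3 such markers.

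Of 20 G1/S genes 2 were lower, the ribonucleotide reductase gene Rrm2 (−1.17) and the chromatin factor gene Uhrf1 (−1.84), and 1 was higher, the replication gene Gins2 (1.11). Rrm2 missed a criterion with 2000 to 5000 genes per cell (−0.96) and without cells of other types (−0.95). Gins2 missed one with at least 2000, 2000 to 5000 or 3000 to 5000 genes per cell (0.81, 0.75 and 1.13) and with a pseudocount of 10 (0.92). The abundant replication genes Mcm7, Rrm1 and Pcna stood at 0.31, −1.42 and −1.01. Among G1 regulators, Ccnd2, a D-type cyclin gene, ran from 0 through a median of 164 to 10148 TPM in NSC and from 0 through 3.11 to 2452 TPM in BP. It was in 50 and 32 cells, with a log2 difference of −2.67. It missed the share criterion among cells with 3000 to 5000 genes (−2.36) and without cells of other types (−1.88). Ccnd1 was also lower (−1.67), and Cdkn1c, which encodes a cyclin-dependent kinase inhibitor, was higher: 23 of 61 BP cells and 5 of 66 NSC cells held it (2.91). The 20 G1/S genes and the 10 G1 regulators each had 1 higher and 2 lower genes. Over all genes 8.39% were higher and 0.756% lower, so a single higher gene is near or under that share. At P0 0 genes of either list were higher, and 9 G1/S genes and 2 G1 regulators were lower. Cdk4 and Cdk6, the kinase partners of D-type cyclins, had means of 525 and 202 TPM in BP and 1438 and 685 TPM in NSC.

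Among 13 Notch pathway genes 3 were lower and 0 higher. The receptor gene Notch2 was in 36 of 66 NSC cells (54.5%, 41.8 to 66.9) and 5 of 61 BP cells (8.20%, 2.72 to 18.1), with medians of 7.67 and 0 TPM (−5.55). The ligand gene Jag1 was in 26 and 3 cells (−3.16), and Hes5 was lower as already given. The nuclear effector gene Rbpj had a difference of 1.36 in 25 BP and 19 NSC cells and was counted as neither. The targets Hes1 and Nrarp were in 12 and 8 NSC cells and at 0 in all BP cells, which did not reach the share criterion. Among 13 BMP and Id genes the inhibitors of DNA binding split. Id2 was higher, at medians of 2433 TPM in BP and 9.81 TPM in NSC and in 57 and 35 cells (2.17). Id3 was at 0 in every BP cell and in 14 NSC cells with a mean of 129 TPM, missing the share criterion at 10 TPM, and Id1 had means of 17.7 and 199 TPM without meeting the share criterion. Among 11 FGF pathway genes the target Etv5 was lower (−4.91, 22 NSC and 1 BP cells). The receptor gene Fgfr1 was higher (1.24, 36 BP and 19 NSC cells), but among cells with 3000 to 5000 genes its difference was −0.50. The BMP and Id list and the FGF list each had 1 higher gene, near the 8.39% over all genes. At P0 0 genes of either list were counted as higher.

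Adhesion and metabolism lists held few calls. Over all genes 8.39% were higher and 0.756% lower, and 0 apical adhesion genes were counted as higher at P0. Of 11 apical adhesion genes Cdh2, the N-cadherin gene (1.33), and Llgl1, a polarity gene (1.59), were higher; Llgl1 missed the criteria with either range of genes per cell, and Cdh2 with 3000 to 5000. Of 12 cholesterol and fatty acid genes the isoprenoid enzyme gene Idi1 was lower (−4.11, 38 NSC and 16 BP cells). Of 10 serine and one-carbon genes Phgdh, the first enzyme of serine synthesis, was lower (−4.73, 30 and 3 cells). Of 83 ribosomal protein genes 0 met the criteria.

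The P0 pair, which shares no library with E18.5, offered a second look at the same contrast. At P0, where genes per cell were close (medians 5239 in BP and 5076 in NSC), 13933 genes were compared; 564 were higher in BP (4.05%) and 582 lower (4.18%). Of the 1121 genes higher at E18.5, 870 had the same sign at P0 (77.6%) and 251 were counted as higher there, which is 22.4% of the E18.5 genes and 44.5% of the P0 genes. Of the 101 lower genes, 99 had the same sign (98.0%) and 87 were counted as lower, 86.1% of the E18.5 genes and 14.9% of the P0 genes. The excess of higher over lower genes at E18.5 was thus not present at P0. Of the lists, the deep layer median went from 1.14 to −0.21 and the Notch median from −0.77 to −3.03.

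To set the E18.5 difference against the spread between libraries, the 3 BP libraries of E16.5, E18.5 and P0 were compared with the 4 NSC libraries of E17.5, E18.5, P0 and P1. The labels of P1 give a postnatal age of 2 days. By limma with Benjamini-Hochberg adjustment, 13918 genes were tested; 17 were higher in BP (0.122%) and 91 lower (0.654%). All 108 had the same sign at E18.5, whose libraries are part of this fit. The p-values measure the spread between these libraries, which differ in age and may differ technically. Of the 12 named genes lower at E18.5, 7 passed (Aldoc, Mfge8, Tnc, Ddah1, Sall3, Gng12 and Slc1a3), and of the 12 higher 0 passed, with all 12 in the same direction. Both sets were picked by their E18.5 differences and the fit holds those libraries, so these counts are partly set by that choice. Aldoc was 0.0283, 0 and 0 TPM in the BP libraries and 227, 1727, 1493 and 3036 TPM in the NSC libraries, which do not overlap (−10.16 ± 0.77 SE, limma with Benjamini-Hochberg adjusted p = 0.00212). Id3 was at most 0.0632 TPM in BP and at least 98.8 TPM in NSC (−7.91 ± 0.73, adjusted p = 0.00454 by the same limma fit). Ccnd2 was 201, 202 and 99.9 TPM in BP against 925, 1294, 1548 and 1546 TPM in NSC (−3.02 ± 0.31, limma adjusted p = 0.00744).

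**Figure D5:**
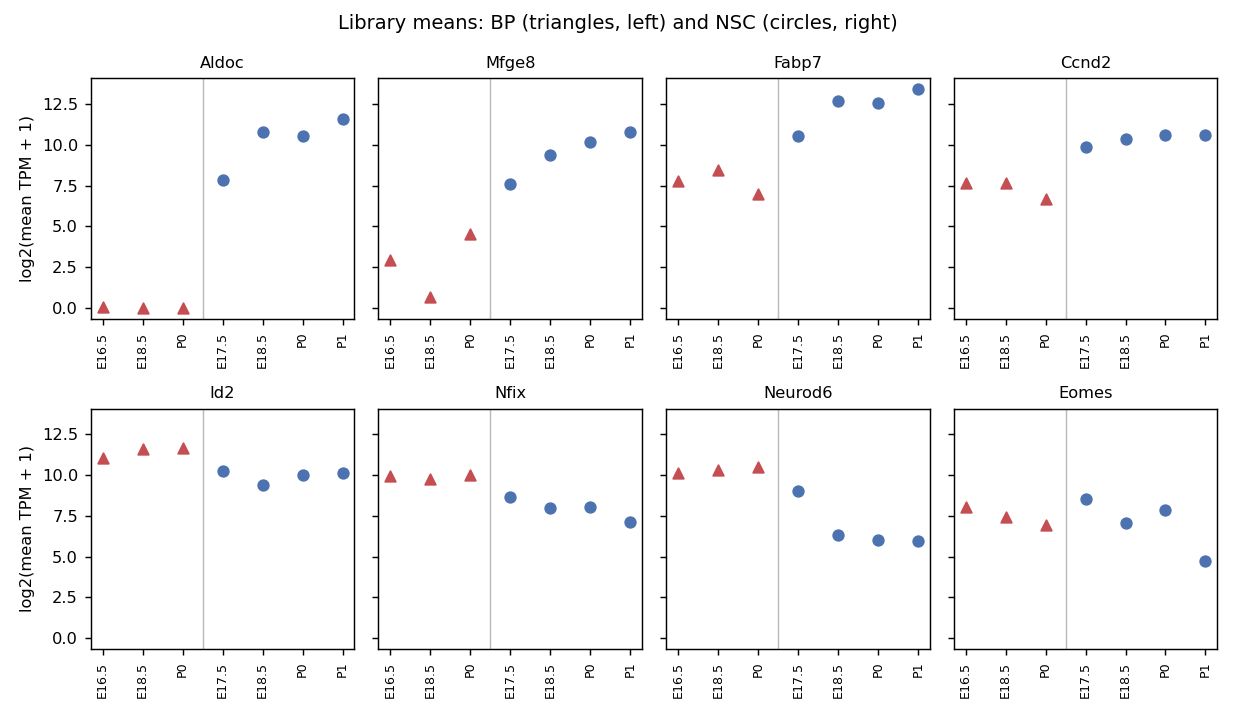
Each panel is 1 gene, with log2(mean TPM + 1) of the 3 BP libraries (triangles) and the 4 NSC libraries (circles) in order of stage. Aldoc, Fabp7, Ccnd2 and Id2 do not overlap between the populations, and Eomes does.

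Of the 18 radial glia genes 8 fell in BP by the limma fit, and 11 of 23 astroglial genes did. So did 2 of 8 interneuron genes, Gad1 (limma adjusted p = 0.0137) and Dlx5 (limma adjusted p = 0.0406). Interneuron markers were in 15 of 76, 8 of 66, 13 of 45 and 5 of 47 NSC cells from E17.5 to P1. In BP they were in 2 of 79, 0 of 61 and 0 of 75 cells from E16.5 to P0. Fabp7 changed by −4.55 ± 0.60 (limma adjusted p = 0.0137), Sox9 by −3.07 ± 0.38 (limma adjusted p = 0.0131) and Notch2 by −4.80 ± 0.64 (limma adjusted p = 0.0139). Among dividing cell genes Top2a, Cdk1, Ube2c and Birc5 fell. Id2 rose by 1.47 ± 0.25 (limma adjusted p = 0.0314), with 2091, 3031 and 3195 TPM in BP and 1202, 673, 1030 and 1123 TPM in NSC. Nfix rose by 1.94 ± 0.34 (limma adjusted p = 0.0364). Of 18 newborn neuron genes and 17 basal progenitor genes 0 passed. That is near the 0.122% of all genes tested that were higher in BP, so it says little about these lists. Neurod6 stood at 3.47 ± 0.67 (limma adjusted p = 0.0521) and Rnd2 at 1.31 ± 0.27 (limma adjusted p = 0.0628). The libraries of each did not overlap, which was also so for genes far from the threshold, such as Efnb2 (limma adjusted p = 0.398). The share of all tested genes whose libraries do not overlap is not given here. A lack of overlap, for these genes or others named, is therefore a description only. Hes5 stood at −4.65 ± 0.92 (limma adjusted p = 0.0579) and Eomes at 0.41 ± 0.78 (limma adjusted p = 0.857). These counts rest on single libraries. Without the E18.5 NSC library 0 genes were higher and 5 lower, the same counts as without P0 NSC, and without E17.5 NSC 151 and 263. Without the E16.5, E18.5 or P0 BP library the counts were 5 and 23, 4 and 22, and 4 and 25, and without P1 NSC 8 and 56. Without both E18.5 libraries 0 genes passed in either direction. Aldoc, Id3 and Ccnd2 passed with each single library left out, whereas Id2, Slc1a3, Pdpn, Cdk1, Olig2, Ube2c and Birc5 passed in 1 of the 7 such fits. Tnc and Sox9 passed in 5 of them, Mfge8 in 4, Fabp7 and Gng12 in 3, and Ddah1, Sall3, Notch2, Top2a, Nfix, Gad1 and Dlx5 in 2.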

How the data were processed

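The deposited tables hold TPM per gene and cell. Per the submitters' processing notes the authors used kallisto 0.43.0, with GRCm38.p2 and mm10 as builds. A few near-empty deposited columns of other libraries hold only whole numbers, named a score; all were under the gene minimum and unused. TPM keep no depth, so precision rests on cells per library and exact binomial (Clopper-Pearson) 95% intervals. Members, lists and the rule for named genes were chosen with earlier results of these data known. Other stages were not analysed here beyond the libraries named.

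Cells with at least 1000 genes at 1 TPM were kept. Per gene, log2 of the ratio of (mean TPM + 1) and the share of cells at 1 TPM or more were taken; this scale understates low genes. Named genes were the 12 largest differences each way with a mean of 10 TPM and 25 points of share, the reporter genes, and up to 4 members per list by mean TPM; other members named were chosen after their values were seen. The upper layer list is not reported here in full. The 31 lists hold 357 genes, of which Fog2, Afdn and Dlx6os1 were not matched by symbol. Of 23078 IDs, 22361 matched GENCODE M21, the source of the GRCm38 positions, which may be another release than that of the authors' tables.

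Libraries were compared with limma 3.58.1 in R 4.3.3 (eBayes with trend) on log2(mean TPM + 1), for genes with a mean of 1 TPM in at least 2 of 7 libraries, two-sided, threshold 0.05. Tested on simulated data, of changes of 6, 4, 2 and 1 log2 units, 50 genes each, the fit called 88%, 68%, 18% and 2%. Of 13718 unchanged genes it called 0.0437%. The simulated noise was normal, with 1 spread per gene for both populations and no floor at 0. Real spreads can be unequal: the SD of Aldoc was 0.023 log2 units over the BP libraries and 1.62 over the NSC libraries. The percentages therefore need not hold for the real libraries. Python 3.11.15, pandas 2.3.3 and SciPy 1.17.1 made the rest. Alternatives changed the pseudocount, cells, detection level, averaging, scaling, filter, age term and libraries.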

Additional observations from a re-analysis of the deposited data

Results flagged for a closer look

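In 5 named genes, 1 of the 4 late NSC libraries was set apart from the other 3. The gap was wider than expected for 4 values. The genes looked at were the 12 largest E18.5 differences each way and the reporter genes. For unselected genes, chance alone gives such a gap in about 1 of 20 groups. That rate does not hold here, because most of these genes were picked by values that include the E18.5 NSC library. Lpin1 was lowest in the E18.5 NSC library, at a mean of 0.0347 TPM, while the other 3 were between 13.9 and 20.1 TPM. That low value is part of why Lpin1 was named. The remaining 4 genes were lowest at E17.5: Ddah1 at 93.1 TPM, Serpine2 at 4.07 TPM, Olig1 at 0.123 TPM and Zcchc24 at 5.12 TPM. In the E18.5 NSC library these 4 genes stood at 539, 477, 68.6 and 48.6 TPM. For Lpin1 the E18.5 difference was 5.56 and the P0 difference 1.30.

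Genes counted in opposite directions at the E18.5 and P0 pairs number 3. Mid1 was 2.44 at E18.5 and −1.90 at P0, and Abhd17b was 1.42 and −1.20. Gm21857 was at 0 in every NSC cell at E18.5 with a BP mean of 11.4 TPM, and its P0 difference was −1.68. The difference between the stages was not tested for any of them.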

How the results depend on the processing

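For E18.5, 14 alternatives were tried. Cells with 2000 to 5000 genes gave 186 lower genes. The 10 TPM share gave 670 higher. Chosen after the data were seen, cells with 3000 to 5000 genes gave 694 higher and 333 lower, and NSC cells with the radial glia profile 202 lower. With 3000 to 5000 genes, 67.6% of calls were higher in BP against 91.7% in the main comparison, 537 of the 1121 higher and 93 of the 101 lower genes kept their call, and Fgfr1 was the gene that turned, to −0.50. Other alternatives kept each count within 1.5 times. Of the single-gene values at E18.5, 1705 kept their call, 54 lost it, 21 gained one and 11 of uncalled genes changed sign.

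In the late libraries, age as a covariate gave 4 higher and 30 lower, a pseudocount of 10 gave 4 and 35, no filter 4 and 9, log2 averaging 215 higher, and leaving out both E18.5 libraries 0 and 0. Leaving out 1 library gave 0 to 151 higher and 5 to 263 lower. The cause was not tested. By limma 1867 genes had an unadjusted p under 0.05 with all 7 libraries.

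Cells with 3 markers depend on the level asked: at 1 TPM radial glia markers were in 90.2% of BP and 98.5% of NSC cells, neuron markers in 97.0% of NSC, G2/M markers in 93.4% and 93.9%, and astroglial markers in 77.0% and 87.9%. No paired analysis was possible because replicate numbers in the labels only name cells. Unknown depth and 1 library a side limit the E18.5 comparison.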
